A study of Macaca mulatta with 27 samples.

Results

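The MEK-ERK feedback genes described here are 10 transcripts that mammalian cells make when the kinase ERK is active, namely DUSP4, DUSP5, DUSP6, SPRY1, SPRY2, SPRY4, SPRED1, SPRED2, ETV4 and ETV5. They were chosen by name, not by their values, and all 10 were found among the 17967 gene symbols counted in rhesus macaque pluripotent stem cells (PSCs). All 10 also passed the filter on low counts in each comparison.

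Growth factors such as FGF2 act through receptor tyrosine kinases, RAS and RAF on the kinase MEK, which phosphorylates ERK. Active ERK switches on its own brakes. The dual-specificity phosphatases DUSP4, DUSP5 and DUSP6 remove phosphate from ERK, the Sprouty proteins SPRY1, SPRY2 and SPRY4 act between the receptor and RAF, and the Sprouty-related SPRED1 and SPRED2 recruit the RAS inhibitor neurofibromin. ETV4 and ETV5 are ETS-family transcription factors made downstream of FGF signalling. Because MEK inhibitors lower these transcripts in many cell types, they are widely used as a readout of ERK output, and primed PSCs depend on FGF2 and ERK whereas mouse naive PSCs are kept with a MEK inhibitor.

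Bulk RNA-seq libraries were compared between primed cells (6 libraries) and cells reprogrammed toward the naive state with 7 protocols (3 libraries each). All groups derive from a single clonal rhesus embryonic stem cell line, LyonES-tGFP-(S3), which carries tauGFP under the CAG promoter and STAT3-ERT2, a STAT3 that tamoxifen activates, so the results hold for 1 clone. Primed cells were passaged mechanically as clumps and reprogrammed cells as single cells, and this difference cannot be told apart from that of the media. The protocols were ordered by what the study's text says of a MEK inhibitor. TL2i cells received tamoxifen, LIF and inhibitors of MEK and GSK3β. For t2iLGöY a MEK inhibitor is given only by the 2i in its name, which stands for MEK and GSK3 inhibition. For E-NHSM, NHSM-v, 4i/L/b and LCDM (EPS) the recipe was not in the text used here. TL-CDK8i cells, like TL2i cells, received tamoxifen and LIF, but an inhibitor of the mediator kinases CDK8 and CDK19 replaced the MEK and GSK3β inhibitors. Tamoxifen was used in TL2i and TL-CDK8i cells only.

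The 27 libraries held from 7111886 to 20760914 counts, and each feedback gene had at least 10 counts in each library, above the 3 counts taken as the floor of quantification. Values are given as CPM, counts scaled to a common library size with TMM factors, and since they are not divided by transcript length, levels are compared between samples and not between genes. Groups were compared by edgeR's quasi-likelihood test with Benjamini-Hochberg adjustment over all genes tested, and a gene with an adjusted p under 0.05 was called higher or lower. The labels do not say whether the libraries of a group came from separate cultures, so p-values measure the spread between these libraries, which may be technical. A pluripotent identity was not borne out by the markers in each group. The summed CPM of 8 pluripotency genes was 3217 to 3708 in primed, 3628 to 3779 in E-NHSM and 1271 to 1759.5 in TL-CDK8i cells, but 113 to 491 in the other 5 protocols, and NANOG was at the floor in t2iLGöY, NHSM-v, 4i/L/b and LCDM (EPS) cells. SOX2 carried most of this sum in t2iLGöY, NHSM-v and LCDM (EPS) cells, at means of 109, 103 and 322 CPM. LIN28A did so in TL2i cells, at 271 CPM. The study also found SOX2 in neurectoderm, in mouse cells of its rabbit chimeras. In bulk samples fewer cells that make a transcript and less of it per cell cannot be told apart.

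The feedback genes split the protocols into a low group and a group closer to primed cells. Their log2 CPM, averaged over the 10 genes in each library, was 6.92 ± 0.23 (SD, n = 6) in primed cells. It was 4.27 ± 0.07 in TL2i, 3.68 ± 0.12 in t2iLGöY, 4.09 ± 0.13 in E-NHSM and 4.03 ± 0.12 in LCDM (EPS) cells (SD, n = 3 each), which is 2.65 to 3.25 lower. In NHSM-v, 4i/L/b and TL-CDK8i cells this mean was 6.47 ± 0.04, 6.17 ± 0.02 and 6.58 ± 0.10 (SD, n = 3 each), which is 0.34 to 0.76 lower. No library of the first 4 protocols exceeded 4.33, and no library of the last 3 was under 6.15. The protocols with a stated or named MEK inhibitor, TL2i and t2iLGöY, were both in the low group. TL-CDK8i, in which the inhibitor was replaced, was not. Of the protocols whose recipe was not in the text used here, E-NHSM and LCDM (EPS) were in the low group and NHSM-v and 4i/L/b were not. Whether this division follows the use of a MEK inhibitor therefore could not be told from these protocols and was not tested.

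Counts of calls against primed cells came from the same genes and libraries, so they describe the same division and do not test it. Each count stands beside the share of all tested genes called in that direction. In TL2i cells 9 of the 10 genes were lower, where 25.2% of all genes were lower and 25.6% higher, and none of the 10 was higher. All 10 were lower in t2iLGöY (27.2% of all genes), in E-NHSM (15.1%) and in LCDM (EPS) cells (28.9%). In NHSM-v cells 6 were lower (30.6%) and 2 higher (28%), in 4i/L/b cells 5 were lower (29%) and 1 higher (26.6%), and in TL-CDK8i cells 5 were lower (23.8%) and 1 higher (22.3%). The median log2 fold change of the 10 genes was -2.35 in TL2i, -2.55 in t2iLGöY, -3.42 in E-NHSM and -2.17 in LCDM (EPS) cells, and -0.39, -0.40 and -0.42 in NHSM-v, 4i/L/b and TL-CDK8i cells, while that of all genes was between -0.02 and 0.07. In 9 of the 10 genes in TL2i (22.8% of all genes), 10 in t2iLGöY (25.2%), 10 in E-NHSM (14.8%) and 9 in LCDM (EPS) cells (27.1%) each library was below each primed library. This held for 5 in NHSM-v (26.2%), 4 in 4i/L/b (25.1%) and 4 in TL-CDK8i cells (20.5%), and each library was above each primed library for 3 in NHSM-v (29.4%), 1 in 4i/L/b (30.4%) and 1 in TL-CDK8i cells (25.6%). Of the 70 comparisons of a gene in a protocol with primed cells, 55 were called lower, 4 higher and 11 neither. The 7 comparisons share the same primed libraries and are not independent of each other.

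**Figure D1:**
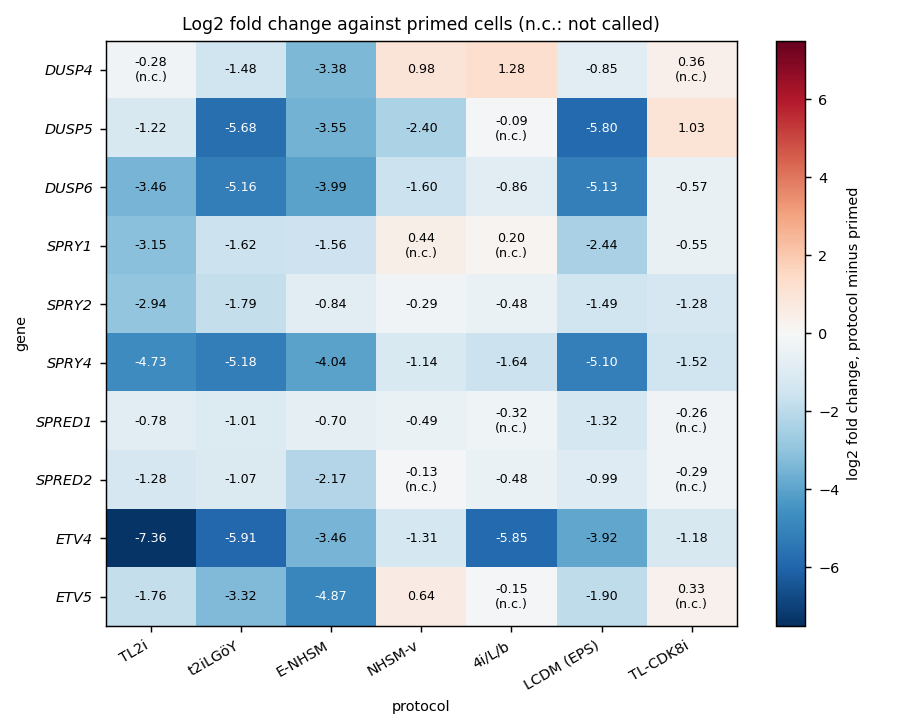
Log2 fold change against primed cells of the 10 feedback genes (vertical axis) in the 7 protocols (horizontal axis), from edgeR, with blue lower and red higher than primed; n.c. marks values that were not called. The columns of TL2i, t2iLGöY, E-NHSM and LCDM (EPS) hold negative values throughout, from -7.36 for ETV4 in TL2i cells to -0.28 for DUSP4 in TL2i cells.

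DUSP6, the phosphatase that acts on ERK in the cytoplasm, was lower in each of the 7 protocols. Its level in primed cells was 521 to 684 CPM with a median of 549. The 3 libraries of TL2i cells held 45.4, 54.0 and 55.2 CPM, and those of t2iLGöY cells 12.8, 14.6 and 18.9 CPM. E-NHSM cells had 26.5, 33.6 and 47.0 CPM and LCDM (EPS) cells 15.01, 15.8 and 16.4 CPM. These 4 protocols thus retained between 2.73% and 9.09% of the mean primed level. NHSM-v cells held 190.0, 192 and 197 CPM, 4i/L/b cells 299, 324 and 349 CPM, and TL-CDK8i cells 342, 379.8 and 455 CPM. No library of any protocol reached the lowest primed library. The log2 fold change was -5.16 ± 0.15 (SE) in t2iLGöY cells (edgeR's quasi-likelihood test, adjusted p = 1.9e-12) and -0.57 ± 0.11 (SE) in TL-CDK8i cells (adjusted p = 0.000825), the largest and the smallest of the 7.

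DUSP5, a phosphatase that holds ERK in the nucleus, covered the widest range of the 10 genes between protocols. Primed libraries held 67.6 to 118 CPM with a median of 101. It was nearly absent from t2iLGöY cells, with 0.679, 1.67 and 3.24 CPM, and from LCDM (EPS) cells, with 1.17, 1.62 and 2.29 CPM. E-NHSM cells had 6.90, 8.94 and 9.15 CPM and TL2i cells 41.2, 41.6 and 42.1 CPM, all below the primed range. NHSM-v cells had 18.03, 18.7 and 20.3 CPM, a log2 fold change of -2.40 ± 0.17 (SE; adjusted p = 1.63e-08 by edgeR's quasi-likelihood test). DUSP5 thus crossed the division, with NHSM-v cells below TL2i cells. In the fit of all 27 libraries these differed by 1.16 ± 0.21 (SE) on the log2 scale (adjusted p = 2.95e-05 by edgeR's quasi-likelihood test). The 3 libraries of 4i/L/b cells, at 90.8, 94.5 and 98.6 CPM, lay within the primed range, and the log2 fold change of -0.09 ± 0.14 (SE), which became 0.012 without the primed library K3, was not called. TL-CDK8i cells stood above it with 192, 208 and 210.4 CPM, and DUSP5 rose there by 1.03 ± 0.13 (SE) on the log2 scale (adjusted p = 1.83e-05 by edgeR's quasi-likelihood test).

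DUSP4, the nuclear phosphatase that ERK induces, varied most among the primed libraries, from 31.6 to 112 CPM with a median of 77.7. TL2i cells, with 59.5, 61.4 and 64.6 CPM, lay inside that range and were not called, at a log2 fold change of -0.28 ± 0.31 (SE). It was lower in t2iLGöY cells, at 21.3, 28.7 and 28.9 CPM, and lowest in E-NHSM cells, at 6.84, 7.14 and 7.54 CPM (log2 fold change -3.38 ± 0.35, SE, adjusted p = 8.23e-07 by edgeR's quasi-likelihood test). Both groups were below the primed range. In LCDM (EPS) cells it was called lower at 38.6, 40.1 and 42.8 CPM, within the primed range, and that call was lost without any of the 3 LCDM (EPS) libraries or of the primed libraries K1, K2 and K3, with log2 fold changes of -0.87 to -0.71 and adjusted p of 0.0685 to 0.111. DUSP4 rose in NHSM-v cells, at 144, 153 and 164 CPM, by 0.98 ± 0.29 (SE; adjusted p = 0.00828), and in 4i/L/b cells, at 182, 187 and 199 CPM, by 1.28 ± 0.29 (SE; adjusted p = 0.00202), both on the log2 scale by edgeR's quasi-likelihood test. All 6 of these libraries were above the primed range. TL-CDK8i cells held 76.9, 87.7 and 131 CPM, overlapped primed cells and were not called.

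SPRY4, a Sprouty inhibitor of the RAS-RAF step, was lower in all 7 protocols. Primed libraries held 249.6 to 494 CPM with a median of 406. The values were 13.1, 14.9 and 15.6 CPM in TL2i, 7.71, 9.71 and 13.9 CPM in t2iLGöY, and 9.51, 10.5 and 12.97 CPM in LCDM (EPS) cells. E-NHSM cells had 22.2, 23.7 and 24.6 CPM. In these 4 protocols SPRY4 was 2.68% to 6.06% of the primed mean, with log2 fold changes of -5.18 to -4.04. NHSM-v cells held 179, 181 and 187 CPM, 4i/L/b cells 121, 126 and 140.0 CPM, and TL-CDK8i cells 118, 131 and 166 CPM. These 9 libraries were also below the primed range, at log2 fold changes of -1.14 ± 0.16, -1.64 ± 0.18 and -1.52 ± 0.18 (SE), with adjusted p of 2.67e-05, 3.3e-06 and 1.13e-05 by edgeR's quasi-likelihood test.

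**Figure D2:**
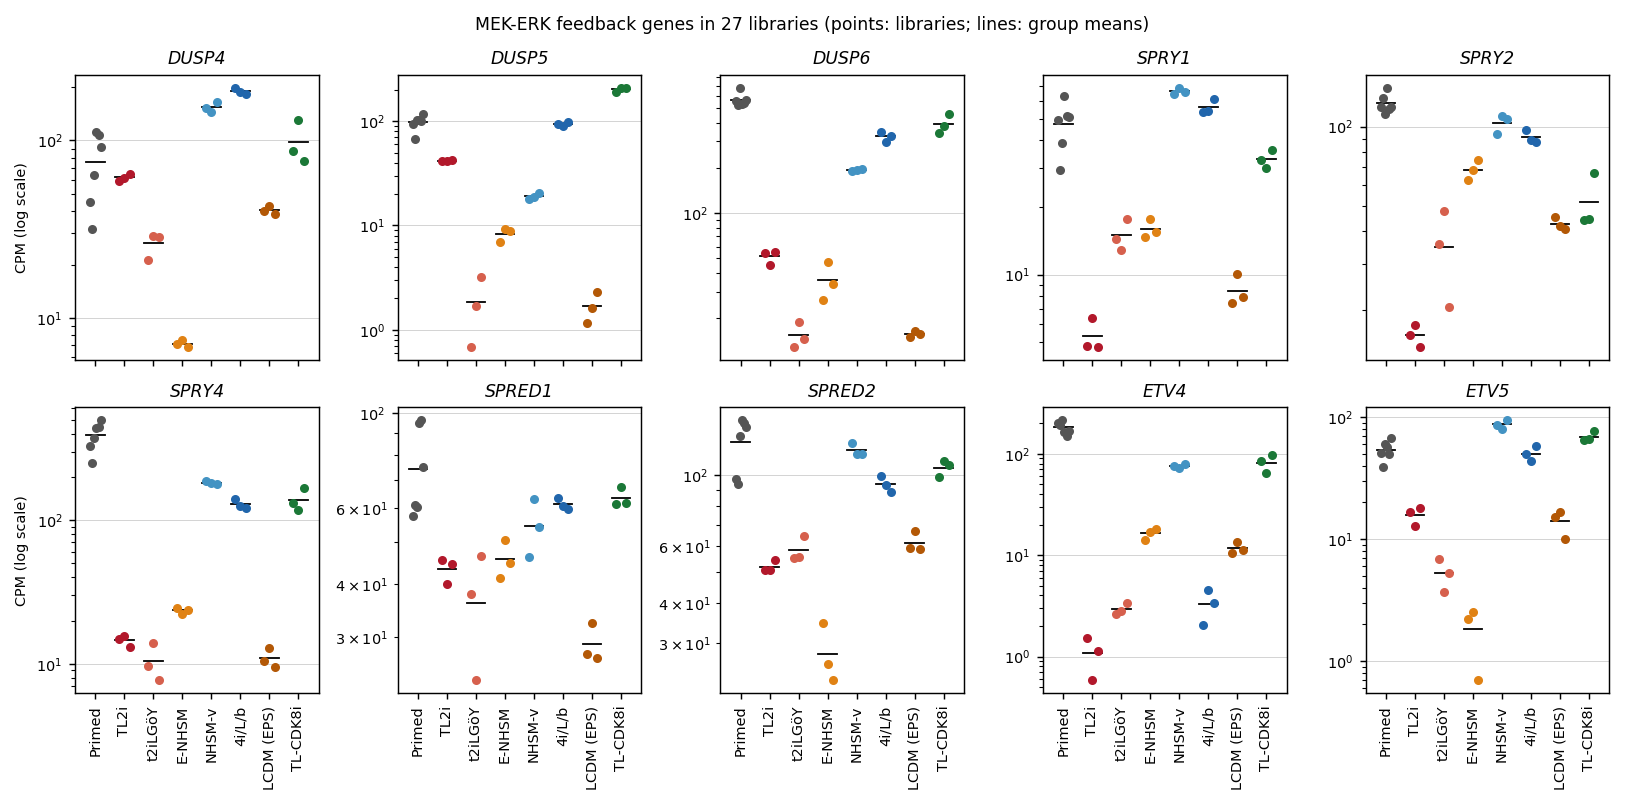
CPM of each feedback gene (1 panel per gene, log scale with its own range) in the 27 libraries, by group on the horizontal axis; points are libraries and lines are group means (n = 6 for primed, n = 3 for each protocol). For DUSP6 and SPRY4 all protocol libraries lie below all primed libraries, whereas for DUSP4 the NHSM-v and 4i/L/b libraries lie above them.

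SPRY2, another Sprouty inhibitor, was also called lower in all 7 protocols, but over a narrower range. It was 112 to 141 CPM in primed cells with a median of 119. The lowest values were in TL2i cells, at 14.4, 15.97 and 17.6 CPM (log2 fold change -2.94 ± 0.12, SE, adjusted p = 3.52e-10 by edgeR's quasi-likelihood test). t2iLGöY cells spread from 20.5 to 47.8 CPM, LCDM (EPS) cells from 40.8 to 45.0 CPM and E-NHSM cells from 62.6 to 74.8 CPM. TL-CDK8i cells, at 44.1, 44.6 and 66.5 CPM, overlapped LCDM (EPS) cells for this gene. Their mean of 51.7 CPM was under the 68.6 CPM of E-NHSM cells, a pair that was not called. In NHSM-v cells, at 93.8 to 110.1 CPM, the call at a log2 fold change of -0.29 ± 0.10 (SE; adjusted p = 0.0264 by edgeR's quasi-likelihood test) was lost in 7 of the 9 fits that left out a library, at -0.30 to -0.20 with adjusted p of 0.051 to 0.189. Those libraries were NHSM-v 1 and 3 and the primed J1, J2, K1, K2 and K3. DESeq2 did not call it either, at -0.24 (adjusted p = 0.0622).

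SPRY1, the Sprouty protein closest in role to SPRY2, was 29.5 to 63.5 CPM in primed cells with a median of 50.2. TL2i cells were lowest with 4.73, 4.78 and 6.38 CPM, a log2 fold change of -3.15 ± 0.25 (SE; adjusted p = 1.96e-07 by edgeR's quasi-likelihood test). LCDM (EPS) cells held 7.45 to 10.1 CPM, t2iLGöY cells 12.9 to 17.7 CPM and E-NHSM cells 14.7 to 17.7 CPM. All libraries of these 4 protocols were below the primed range. In 4i/L/b cells, at 53.5 to 61.4 CPM, it was not called. NHSM-v cells, at 64.2, 65.7 and 69.0 CPM, were above each primed library but the log2 fold change of 0.44 ± 0.19 (SE) missed the threshold (adjusted p = 0.0559 by edgeR's quasi-likelihood test), which it passed without any 1 of the primed libraries J1, J2, K1, K2 and K3, at 0.38 to 0.58 with adjusted p of 0.0109 to 0.0456. The call in TL-CDK8i cells, at 30.04 to 36.3 CPM and a log2 fold change of -0.55 ± 0.20 (SE), was lost without any of their 3 libraries or of the primed J1, K1, K2 and K3, at -0.60 to -0.43 with adjusted p of 0.059 to 0.14.

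The Sprouty-related genes had the narrowest ranges between protocols, with log2 differences of 1.14 for SPRED1 and 2.11 for SPRED2 between the highest and the lowest. SPRED1, which carries neurofibromin to the membrane, was 57.6 to 96.4 CPM in primed cells with a median of 68.0, and 23.8 to 67.3 CPM over the 21 libraries of the protocols. It fell in t2iLGöY by 1.01 ± 0.22 (SE), in LCDM (EPS) by 1.32 ± 0.19 (SE), in TL2i by 0.78 ± 0.17 (SE) and in E-NHSM cells by 0.70 ± 0.17 (SE) on the log2 scale, with all libraries below the primed range. The call in NHSM-v cells, at -0.49 ± 0.18 (SE) and with overlapping ranges, was lost without NHSM-v 1 or 3 or the primed K1, K2 or K3, at -0.48 to -0.36. SPRED2, which acts on RAS in the same way, was 93.7 to 147 CPM in primed cells with a median of 137 and lowest in E-NHSM cells, at 23.1, 25.9 and 34.7 CPM (log2 fold change -2.17 ± 0.18, SE, adjusted p = 6.19e-08 by edgeR's quasi-likelihood test). TL2i, t2iLGöY and LCDM (EPS) cells held 50.6 to 66.7 CPM, all below the primed range. The call in 4i/L/b cells, at -0.48 ± 0.15 (SE), was lost without 4i/L/b 2 or 3, at -0.47 and -0.44. Neither SPRED1 in 4i/L/b cells nor SPRED2 in NHSM-v cells was called. In TL-CDK8i cells neither was called with all libraries, although SPRED2, at -0.29, passed without the primed J2, at -0.36 (adjusted p = 0.0402).

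ETV4, an ETS factor of the PEA3 group, showed the largest fall of any feedback gene and was lower in all 7 protocols. Primed libraries held 149 to 214 CPM with a median of 181. The 3 libraries of TL2i cells held 0.585, 1.13 and 1.51 CPM, from 10 to 31 counts, or 0.592% of the primed mean (log2 fold change -7.36 ± 0.26, SE, adjusted p = 5.26e-11 by edgeR's quasi-likelihood test). t2iLGöY cells held 2.65, 2.81 and 3.39 CPM. LCDM (EPS) cells held 10.4, 11.3 and 13.4 CPM, and E-NHSM cells 14.1, 17.0 and 18.3 CPM. For this gene 4i/L/b cells were an exception to the division of the protocols, as NHSM-v cells were for DUSP5. ETV4 was at 2.03, 3.38 and 4.55 CPM in 4i/L/b cells, a log2 fold change of -5.85 ± 0.23 (SE; adjusted p = 2.14e-10 by edgeR's quasi-likelihood test). The other 9 genes of that protocol lay between -1.64 and 1.28. NHSM-v cells held 72.5, 75.9 and 78.6 CPM and TL-CDK8i cells 65.2, 84.0 and 96.5 CPM, under the lowest primed library in each case. Its log2 fold changes there were -1.31 ± 0.13 and -1.18 ± 0.15 (SE).

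ETV5, its closest relative on the list, differed from it in pattern. Primed cells held 38.7 to 67.7 CPM with a median of 53.5. ETV5 was lowest in E-NHSM cells, at 0.700, 2.21 and 2.55 CPM (log2 fold change -4.87 ± 0.33, SE, adjusted p = 4.16e-09 by edgeR's quasi-likelihood test). t2iLGöY cells held 3.68, 5.26 and 6.86 CPM. TL2i cells, with 12.8, 16.8 and 18.1 CPM, and LCDM (EPS) cells, with 10.04, 15.2 and 16.9 CPM, overlapped each other below the primed range. In 4i/L/b cells, where ETV4 was nearly absent, ETV5 held 43.4, 49.99 and 57.5 CPM, within the primed range. It rose in NHSM-v cells, at 80.5, 86.4 and 94.1 CPM, by 0.64 ± 0.16 (SE) on the log2 scale (adjusted p = 0.00243 by edgeR's quasi-likelihood test). TL-CDK8i cells held 64.5, 66.4 and 77.0 CPM and were called, at 0.42, only without the primed library K3.

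The comparison of TL-CDK8i with TL2i cells bears on the MEK inhibitor most directly, since the study gives it in one and replaces it in the other. It does not isolate the inhibitor, because the GSK3β inhibitor was removed and the CDK8 and CDK19 inhibitor added in the same step, and these cannot be told apart. All 10 feedback genes were higher in TL-CDK8i cells, and in each case the 3 TL-CDK8i libraries were above the 3 TL2i libraries. Over all genes 31.5% were called higher and 33.3% lower, and 35.2% had all TL-CDK8i libraries above and 35.3% below those of TL2i. The median log2 fold change was 2.19 for the 10 genes and -0.04 for all genes. ETV4 rose by 6.19 ± 0.24 (SE; 73.2-fold, adjusted p = 1.56e-10), SPRY4 by 3.23 ± 0.14 (SE; 9.37-fold, adjusted p = 3.14e-10) and DUSP6 by 2.91 ± 0.12 (SE; 7.51-fold, adjusted p = 3.12e-10) on the log2 scale in edgeR's quasi-likelihood test. The differences were 2.62 for SPRY1, 2.27 for DUSP5, 2.11 for ETV5 and 1.68 for SPRY2. Smaller rises of 1.00 for SPRED2, 0.65 for DUSP4 and 0.54 for SPRED1 were called as well. When a log2 fold change of at least 1 was asked for, 8 genes remained, without DUSP4 and SPRED1. The summed pluripotency genes also differed between these cells, at 1271 to 1759.5 CPM in TL-CDK8i and 425 to 491 CPM in TL2i cells, and their part in the result was not tested.

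**Figure D3:**
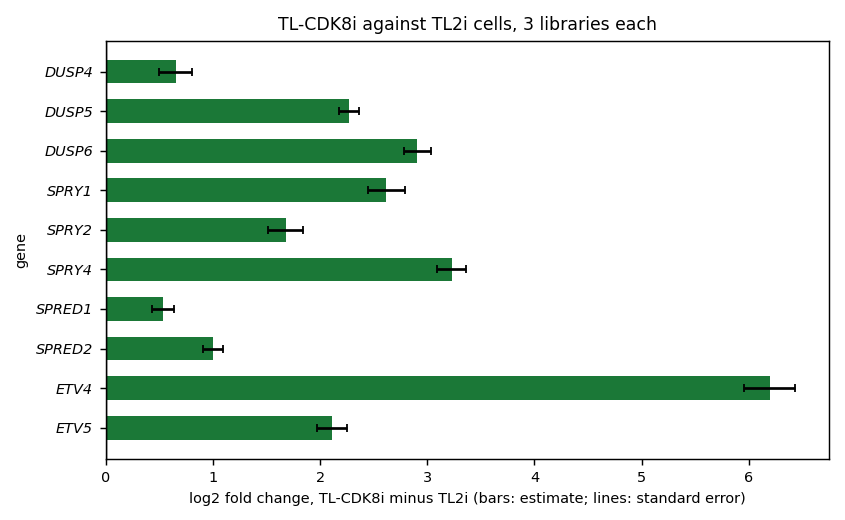
Log2 fold change of each feedback gene between TL-CDK8i and TL2i cells (bars, horizontal axis; positive is higher in TL-CDK8i) with its standard error (lines), from edgeR on 3 libraries each. All bars are positive, from 0.54 for SPRED1 to 6.19 for ETV4.

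Differences among the protocols were tested in a fit of all 27 libraries. Each of the 10 genes differed between the 7 protocols (adjusted p of 7.83e-23 for DUSP6 to 3.23e-05 for SPRED1 by edgeR's quasi-likelihood test), but so did 85% of all genes. The log2 difference between the highest and the lowest protocol was 6.88 for DUSP5, 6.13 for ETV4, 5.63 for ETV5 and 4.69 for DUSP4, and 1.14 for SPRED1, where the median over all genes was 1.73. SPRED1 was therefore the only one of the 10 with a smaller range than the median gene. Within the low group, t2iLGöY and LCDM (EPS) cells differed in the fewest, 3 of the 10 (SPRY1, ETV4 and ETV5), with 27.5% of all genes called. E-NHSM differed from LCDM (EPS) in all 10 (59.6% of all genes), with DUSP4, SPRED2 and ETV5 lower in E-NHSM and the other 7 lower in LCDM (EPS). t2iLGöY differed from E-NHSM in 8 (60.9%). TL2i differed from t2iLGöY in 7 (41.9%), from E-NHSM in 9 (53.5%) and from LCDM (EPS) in 6 (42.4%). TL2i cells had less SPRY1, SPRY2 and ETV4 than each of the other 3, and more DUSP5 and DUSP6.

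In the group closer to primed cells, NHSM-v and TL-CDK8i cells differed in 4 of the 10 genes, while 52.6% of all genes were called between them, and NHSM-v and 4i/L/b cells in 5 (30.7%). 4i/L/b and TL-CDK8i cells differed in 5 (44.9%), among them ETV4. Across the division 8 to 10 of the 10 genes differed in each pair. The division was drawn from these same genes and libraries, so these counts describe it and do not test it. NHSM-v differed from TL2i in 9 (43.5% of all genes), from t2iLGöY in 10 (41.4%), from E-NHSM in 9 (63.1%) and from LCDM (EPS) in 10 (47.8%). DUSP5 was lower in NHSM-v than in TL2i cells, against the direction of the division. TL-CDK8i differed from t2iLGöY in 10 (56%), from E-NHSM in 9 (50.1%) and from LCDM (EPS) in 9 (56.5%), and from TL2i in 10 (45%) in this fit as well. 4i/L/b differed from t2iLGöY in 9 (35.2%), from E-NHSM in 8 (58.5%) and from LCDM (EPS) in 10 (40.9%), and ETV4 was lower in 4i/L/b than in the last 2 of these. Between TL2i and 4i/L/b cells 19.9% of all genes were called, the smallest share of the 21 pairs of protocols, but 9 of the 10 feedback genes were lower in TL2i, with a median absolute log2 difference of 1.63 against 0.32 over all genes. SPRED1 was the gene not called.

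When the 8 groups were placed in order of level for each gene, 29 of the 70 pairs of neighbours differed in this fit and 41 did not. For DUSP6 the order from low to high was t2iLGöY, LCDM (EPS), E-NHSM, TL2i, NHSM-v, 4i/L/b, TL-CDK8i and primed. Its neighbours differed except t2iLGöY and LCDM (EPS) (adjusted p = 0.858) and 4i/L/b and TL-CDK8i (adjusted p = 0.0867), and E-NHSM and TL2i differed with overlapping ranges. SPRY4 had the same 4 protocols at the bottom, with a step of 2.44 ± 0.18 (SE) on the log2 scale between E-NHSM and 4i/L/b (adjusted p = 1.55e-12 by edgeR's quasi-likelihood test). No difference was called between 4i/L/b, TL-CDK8i and NHSM-v as neighbours. NHSM-v and 4i/L/b cells, which are not neighbours, were called different, at 182 and 129 CPM. For DUSP4 only E-NHSM and t2iLGöY differed as neighbours. None of the 7 pairs of neighbours differed for SPRED1.

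Other genes of the pathway were counted from whole lists of known members, which were drawn up with earlier results of these data known. Immediate-early and other transcripts that ERK induces (FOS, EGR and IER genes, MYC and others, 13 in all) were mostly lower in the same 4 protocols. Most were lower in NHSM-v and TL-CDK8i cells too, so this list divided the protocols less clearly than the feedback genes. Of the 13, the number called lower against primed cells was 11 in TL2i, 11 in t2iLGöY, 13 in E-NHSM and 12 in LCDM (EPS) cells, and 8 in NHSM-v, 5 in 4i/L/b and 7 in TL-CDK8i cells, with 1, 1, 0, 1, 2, 4 and 2 called higher. In that order 25.2%, 27.2%, 15.1%, 28.9%, 30.6%, 29% and 23.8% of all genes were lower. The shares higher were 25.6%, 27.1%, 11.1%, 28.2%, 28%, 26.6% and 22.3%. The list medians of the log2 fold change were -1.94, -3.66, -2.51, -3.64, -1.78, 0.12 and -0.96. Between TL-CDK8i and TL2i cells 12 were higher (31.5% of all genes) and 1, the cyclin CCND1, lower (33.3%). EGR2, an early-response transcription factor, was 189 CPM in primed, 7.33 in TL2i and 89.6 CPM in TL-CDK8i cells, and rose between the latter by 3.58 ± 0.19 (SE; adjusted p = 2.15e-09 by edgeR's quasi-likelihood test). MYC, the growth regulator, was 358 CPM in primed, 39.3 in TL2i and 163 CPM in TL-CDK8i cells, a rise of 2.03 ± 0.11 (SE). EGR3, of the same family as EGR2, rose by 2.15 ± 0.13 (SE). NHSM-v cells departed from the feedback genes here, with EGR2 at 5.48 CPM and MYC at 73.0 CPM, lower by 5.14 and 2.34 on the log2 scale than in primed cells.

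A further 16 genes were other phosphatases and inhibitors of the pathway and the ETS factor ETV1, with 15 or 16 of them tested in a comparison. They were called both ways, except in E-NHSM cells, where none was higher than in primed cells. Against primed cells 7 were lower in TL2i, 5 in t2iLGöY, 7 in E-NHSM and 6 in LCDM (EPS) cells, and 3 in NHSM-v, 4 in 4i/L/b and 4 in TL-CDK8i cells, and the numbers called higher were 4, 4, 0, 3, 7, 8 and 5. In that order 25.2%, 27.2%, 15.1%, 28.9%, 30.6%, 29% and 23.8% of all genes were lower. The shares of all genes higher were 25.6%, 27.1%, 11.1%, 28.2%, 28%, 26.6% and 22.3%. In TL-CDK8i against TL2i cells 10 were higher (31.5% of all genes) and 2 lower (33.3%). IL17RD, a membrane inhibitor of FGF signalling, was 638 CPM in primed and 636 CPM in NHSM-v cells (not called), 48.3 in TL2i and 543 CPM in TL-CDK8i cells, and the last pair differed by 3.47 ± 0.14 (SE; adjusted p = 2.15e-10 by edgeR's quasi-likelihood test). ETV1 rose by 2.90 ± 0.18 (SE) and DUSP1, a nuclear phosphatase of several MAP kinases, by 2.63 ± 0.15 (SE). DUSP1 was also higher than in primed cells, 34.3 CPM, in TL-CDK8i (128 CPM) and 4i/L/b cells (112 CPM).

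Receptors, adaptors and the kinases themselves did not share a direction. Of 14 receptors and adaptors, those called lower against primed cells were 5 in TL2i, 5 in t2iLGöY, 5 in E-NHSM, 7 in NHSM-v, 5 in 4i/L/b, 6 in LCDM (EPS) and 4 in TL-CDK8i cells, and those called higher were 6, 7, 2, 5, 2, 5 and 6. Of 14 genes of the RAS-RAF-MEK-ERK cascade the numbers lower were 2, 3, 1, 3, 3, 3 and 6 in the same order, and higher 3, 3, 3, 4, 3, 5 and 5. Of all genes 25.2%, 27.2%, 15.1%, 30.6%, 29%, 28.9% and 23.8% were lower in that order. The shares higher were 25.6%, 27.1%, 11.1%, 28%, 26.6%, 28.2% and 22.3%. In TL-CDK8i against TL2i cells the receptors ERBB3 and FGFR3 were lower, by -1.59 and -1.71, and the adaptor GRB2 higher, by 1.16, and the scaffold KSR1 and the kinase RPS6KA2 were higher, by 1.58 and 0.98, on the log2 scale. In this comparison 4 of the 14 receptors and adaptors were higher and 7 lower, and 7 of the 14 cascade genes were higher and 5 lower. Over all genes 31.5% were higher and 33.3% lower. The list medians against primed cells ranged from -0.25 to 0.34 for receptors and adaptors and from -0.10 to 0.18 for the cascade, beside -3.42 to -0.39 for the feedback genes.

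**Figure D4:**
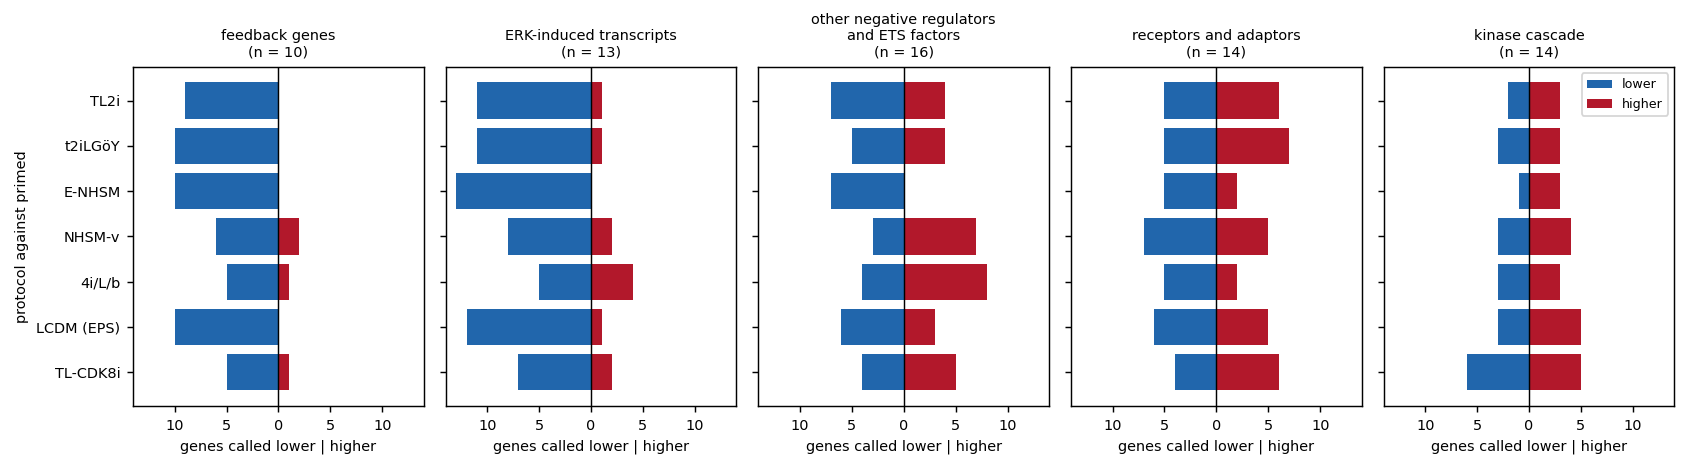
Number of genes called lower (blue, to the left of 0) or higher (red, to the right) against primed cells in each protocol (vertical axis), for the feedback genes and 4 other lists of the pathway. The feedback genes and the ERK-induced transcripts lie mostly to the left in TL2i, t2iLGöY, E-NHSM and LCDM (EPS) cells. In NHSM-v, 4i/L/b and TL-CDK8i cells both lists also have more genes lower than higher. The receptors and cascade genes lie on both sides of 0.

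Genes of the FGF family were counted as well. Of 14 listed genes 8 to 10 passed the filter in a comparison, and against primed cells those lower were 4 in TL2i, 5 in t2iLGöY, 2 in E-NHSM, 3 in NHSM-v, 4 in 4i/L/b, 5 in LCDM (EPS) and 1 in TL-CDK8i cells, with 0, 3, 0, 2, 1, 0 and 2 higher. Of all genes 15.1% were lower and 11.1% higher in E-NHSM cells. In each other protocol 23.8% to 30.6% were lower and 22.3% to 28.2% higher. FGF2, the main ligand of primed PSC culture, had 199 CPM in the primed libraries, 159 CPM in E-NHSM and 168 CPM in TL-CDK8i cells, and 15.9 to 29.6 CPM in the other 5 protocols. It was 3.38 ± 0.12 (SE) higher on the log2 scale in TL-CDK8i than in TL2i cells (adjusted p = 6.45e-11 by edgeR's quasi-likelihood test). FGF1 and FGF17 were also higher there, by 3.98 and 4.29, and in all 6 of the listed genes were higher and 0 lower. Over all genes 31.5% were higher and 33.3% lower in TL-CDK8i than in TL2i cells. In E-NHSM cells, where all 10 feedback genes were lower, FGF2 was not called, at a log2 fold change of -0.32 ± 0.20 (SE; adjusted p = 0.282 by edgeR's quasi-likelihood test).

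The level of the feedback genes was not ordered like that of the pluripotency genes across protocols. E-NHSM cells, with 3628 to 3779 CPM of the 8 pluripotency genes, lay at the upper end of the primed range or above it in this sum but were in the low group for feedback genes. NHSM-v and 4i/L/b cells, with 113 to 122 and 144 to 151 CPM, were in the group closer to primed cells for the feedback genes, whereas t2iLGöY cells, with 124 to 131 CPM, were lowest. Against primed cells all 8 pluripotency genes were lower in TL2i, t2iLGöY, NHSM-v, 4i/L/b and TL-CDK8i cells and 7 in LCDM (EPS) cells, and 2 were lower and 3 higher in E-NHSM cells. Of all genes 15.1% were lower and 11.1% higher in E-NHSM cells, and 23.8% to 30.6% were lower in each other protocol. For POU5F1, the gene of OCT4, the mean was 1185 CPM in primed, 1363 CPM in E-NHSM and 498 CPM in TL-CDK8i cells, and 0.296 to 6.43 CPM in the other 5 protocols.

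**Figure D5:**
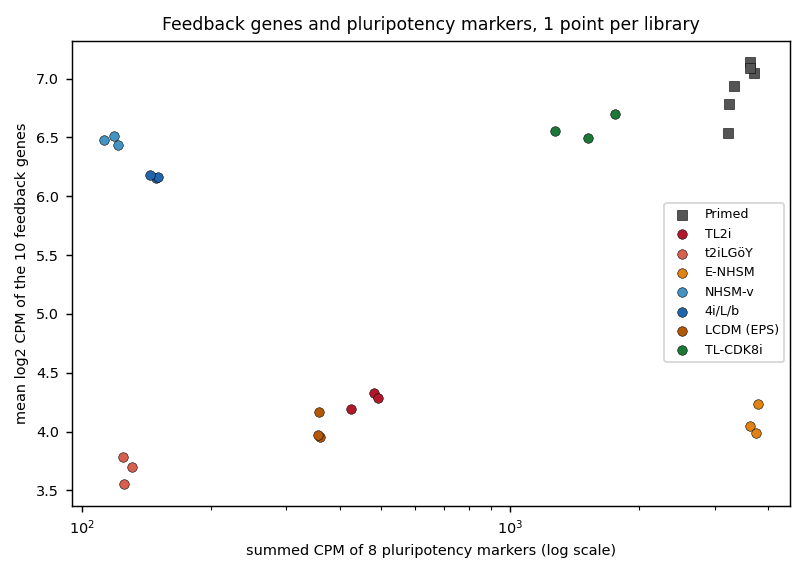
Mean log2 CPM of the 10 feedback genes (vertical axis) against the summed CPM of 8 pluripotency genes (horizontal axis, log scale), 1 point per library, squares for primed cells. Low feedback values occur at both ends of the horizontal axis, in t2iLGöY cells at 124 to 131 CPM and in E-NHSM cells at 3628 to 3779 CPM.

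Markers of other cell types moved between the groups and stand beside these results. Over all genes 11.1% were higher and 15.1% lower than in primed cells in E-NHSM. In each other protocol 22.3% to 28.2% of all genes were higher and 23.8% to 30.6% lower. Of 7 neural progenitor genes 5 were higher than in primed cells in TL2i, 6 in t2iLGöY, 6 in NHSM-v, 5 in 4i/L/b, 7 in LCDM (EPS), 4 in TL-CDK8i and 1 in E-NHSM cells. Of these 7 genes 1 was lower in each of t2iLGöY, NHSM-v, TL-CDK8i and E-NHSM cells, and 0 in TL2i, 4i/L/b and LCDM (EPS) cells. Their summed CPM was 2283 to 2562 in primed, 2686 to 2855 in TL2i, 3838 to 4235 in t2iLGöY, 1230.0 to 1362 in E-NHSM, 2802 to 2845 in NHSM-v, 2810.5 to 3062 in 4i/L/b, 5412 to 5583 in LCDM (EPS) and 2005 to 2092 in TL-CDK8i cells. NES, an intermediate filament gene with a mean of 2437 CPM in primed and 1290.2 CPM in E-NHSM cells, carried most of it. The other 6 genes summed to 12.1 to 23.6 CPM in primed and 17.0 to 25.6 in E-NHSM cells, but to 349 to 427 in TL2i, 2059 to 2262 in t2iLGöY, 812 to 865 in NHSM-v, 371 to 415 in 4i/L/b, 2374 to 2580.4 in LCDM (EPS) and 141 to 180.4 CPM in TL-CDK8i cells, and SOX1 was at the floor in primed cells. Of 8 fibroblast genes 7 were higher in TL2i, NHSM-v, 4i/L/b and TL-CDK8i cells, 2 in t2iLGöY, 2 in LCDM (EPS) and 0 in E-NHSM cells. Those lower were 1 in TL2i, 0 in NHSM-v, 1 in 4i/L/b, 0 in TL-CDK8i, 2 in t2iLGöY, 3 in LCDM (EPS) and 4 in E-NHSM cells. The fibroblast sum was 7981 to 8559 CPM in NHSM-v, 11665 to 15276 in 4i/L/b and 8561 to 11077 CPM in TL-CDK8i cells, the 3 protocols in which feedback genes were closer to primed cells, against 1132 to 2349 CPM in primed, 2915 to 5719 in TL2i, 3389.6 to 3986 in t2iLGöY, 763 to 984 in LCDM (EPS) and 391 to 428 CPM in E-NHSM cells. COL1A1, at means of 6492, 9296 and 7305 CPM, carried most of the sum in these 3 protocols and was 1291 CPM in primed cells. The defining genes DCN and LUM were at the floor in primed, t2iLGöY and E-NHSM cells. LUM was 11.2 CPM in TL2i, 9.53 in NHSM-v, 47.0 in 4i/L/b, 3.33 in LCDM (EPS) and 7.13 CPM in TL-CDK8i cells. DCN was 5.73, 1.83, 41.6, 6.98 and 4.68 CPM in the same order. For both genes the TL2i mean was thus above those of NHSM-v and TL-CDK8i cells. Summed trophoblast (6 genes), endoderm (5) and mesoderm markers (4 found of 5) stayed at or under 231, 77.0 and 99.2 CPM in each library, but some of these genes were called. In TL2i cells 2 trophoblast and 3 endoderm genes were higher than in primed cells and 1 endoderm and 2 mesoderm genes lower, and in TL-CDK8i cells 1 gene of each list was higher. TFAP2A, also a neural crest gene, was 3.37 CPM in primed cells and higher in TL2i (82.0 CPM), t2iLGöY (134 CPM), LCDM (EPS) (177 CPM) and NHSM-v cells (21.03 CPM). KRT7 rose from 2.99 CPM in primed to 161 CPM in TL-CDK8i cells, SOX17 from 0.426 to 22.2 CPM in TL2i cells, and EOMES from 9.45 to 55.1 CPM in TL-CDK8i cells. In the other protocols the calls of the 3 lists were lower, 5 in t2iLGöY, 3 in E-NHSM, 4 in NHSM-v, 3 in 4i/L/b and 4 in LCDM (EPS) cells, apart from the 3 higher values of TFAP2A given above. The part of these cell types in the feedback levels was not tested.

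The primed columns carry the letters J and K, with 3 libraries each, whose meaning the labels do not give, and the feedback genes differed between them. Between K and J 3.73% of all genes were called, and 3 of the 10 feedback genes. DUSP4 was 46.9 ± 16.3 CPM in J and 103 ± 10.7 CPM in K (SD, n = 3 each), a 2.15-fold difference (adjusted p = 0.00514 by edgeR's quasi-likelihood test). SPRY4 was 317 and 460.1 CPM (adjusted p = 0.023) and ETV4, the other way, 204 and 159.9 CPM (adjusted p = 0.0399). SPRY1, SPRED1 and SPRED2 were higher in each K than in each J library without being called. Against the J libraries alone DUSP4 was 0.40 in TL2i cells, and against the K libraries alone -0.73 (adjusted p = 9.48e-05), so its place relative to primed cells turns on the letter. In TL-CDK8i cells DUSP4 was called higher against J, at 1.04 (adjusted p = 0.00858), and was -0.08 against K. The calls of SPRED1 in E-NHSM and NHSM-v, SPRED2 in 4i/L/b, SPRY1 in TL-CDK8i, SPRY2 in NHSM-v and DUSP4 in LCDM (EPS) cells were lost against J alone. Against K alone SPRED1 in 4i/L/b and TL-CDK8i and SPRED2 in NHSM-v and TL-CDK8i cells were called lower as well, at log2 fold changes of -0.54, -0.50, -0.31 and -0.47.

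Over the 8 group means of log2 CPM, the 45 pairs of feedback genes correlated with Pearson's r of 0.15 to 0.96 and a median of 0.67, a description of 8 points that share libraries. DUSP6 and SPRED1 were the most alike, at 0.96, and DUSP4 and ETV4 the least, at 0.15. SPRY4 followed the mean of the other 9 most closely, at 0.97, and ETV4 least, at 0.58. DUSP4 was most like ETV5 (0.94), the only 2 genes called higher in NHSM-v cells. Among 9951 other genes, those whose means were most like the average of the 10 were KPNA4, a nuclear import receptor (0.98), GPC4, a cell-surface proteoglycan (0.94), PDGFB, a growth factor (0.94), WNT5A, a Wnt ligand (0.93), and MEMO1 (0.93). PDGFB was 100.2 CPM in primed, 2.77 in t2iLGöY, 3.56 in LCDM (EPS) and 209 CPM in TL-CDK8i cells, whereas KPNA4 varied only from 169 to 290 CPM.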

How the data were processed

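Libraries were made with a directional mRNA kit and read from one end. The deposited tables hold raw counts of 17967 gene symbols, with a column for each library, in 8 tables. Per the labels the tools of the authors were bcl2fastq, cutadapt, HISAT2 and HTSeq. Tool versions and roles, genome build and annotation are not given in the sources used here, so genes are named by symbol, without positions. Each protocol column could be tied to its sample by name, whereas a primed column could be tied to its group but not to a sample, and 0 columns were left unassigned. All 36 pairs of libraries within a group differed by more than sampling noise, at a chi-square per gene of 4.06 to 30.8.

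From these counts, edgeR 4.0.16 with limma 3.58.1 in R 4.3.3 computed TMM factors, CPM and quasi-likelihood tests. Each comparison was fitted on its own groups after filterByExpr, and a single fit of all 27 libraries gave the test between protocols and the pairs of groups. A log2 CPM used a prior count of 2, and a standard error is the absolute log2 fold change divided by the square root of F. A group was at the floor where each library held 3 counts or fewer. Alternatives were DESeq2 1.42.0, upper-quartile factors, library totals, other filters on low counts, a threshold of 1 on the size of the log2 fold change, a joint fit of the 8 groups, omission of each library, primed letters J or K alone and a replicate block. The fitting was tested on simulated data.

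The feedback genes, the other lists and the tests were chosen with earlier results of these data known. All 10 feedback genes are named. Other list genes are named as up to 3 per list with the smallest adjusted p between TL-CDK8i and TL2i cells, and as markers that define a list, and genes of like pattern as the 5 with the highest Pearson's r. A gene of the kinase cascade that this rule names is not reported here. SOX1, NES, SOX2, LIN28A, COL1A1, TFAP2A, KRT7, SOX17, EOMES, IL17RD in NHSM-v cells, and CCND1 as the single exception in a count, were named after their values were seen. TBXT was not matched by symbol.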

Additional observations from a re-analysis of the deposited data

Results flagged for a closer look

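Primed library J3 stood apart from the other 5 primed libraries for DUSP6. It was the highest at 684 CPM, and its gap to the next library was 0.734 of the whole range, above the 95% limit of Dixon's test for 6 samples. This test was run for the 10 feedback genes in primed cells, and chance alone exceeds the limit in about 1 in 20 such groups.

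The effect against primed cells differed between TL-CDK8i and TL2i cells for each of the 10 genes by the direct test of the difference (edgeR's quasi-likelihood test), with the 3 TL-CDK8i libraries above the 3 TL2i libraries in each case. TL-CDK8i minus TL2i was 6.19 for ETV4, 3.23 for SPRY4, 2.91 for DUSP6, 2.62 for SPRY1, 2.27 for DUSP5, 2.11 for ETV5, 1.68 for SPRY2, 1.00 for SPRED2, 0.65 for DUSP4 and 0.54 for SPRED1 on the log2 scale.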

How the results depend on the processing

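The number of feedback genes called lower was 9 in TL2i cells and 10 in t2iLGöY and E-NHSM cells whichever library was left out. It was 9 to 10 in LCDM (EPS), 4 to 6 in NHSM-v, 4 to 5 in 4i/L/b and 4 to 6 in TL-CDK8i cells, and the number called higher was 2 to 3 in NHSM-v and 1 to 2 in TL-CDK8i cells, with 2 without the primed library K3. A required log2 fold change of 1 or more in size left 0 higher in NHSM-v cells, 2 lower in 4i/L/b cells and 3 lower in TL-CDK8i cells, as it removes small changes by construction. Against the J libraries alone 2 were higher in TL-CDK8i cells. Values that were not called changed sign against J alone for DUSP4 in TL2i (0.40), SPRED2 in NHSM-v (0.12), DUSP5 in 4i/L/b (0.071), SPRED1 in 4i/L/b (0.0023) and SPRED1 in TL-CDK8i cells (0.058), against K alone for DUSP4 in TL-CDK8i cells (-0.084), and without the primed library K3 for DUSP5 in 4i/L/b cells, which ranged from -0.13 to 0.012 as each library was left out. The cause was not tested. Scaling by library totals moved the median of all genes by 0.12 in TL2i, 0.13 in t2iLGöY, 0.12 in LCDM (EPS) and -0.12 in TL-CDK8i against TL2i cells. It moved the calls over all genes, which stand beside the feedback counts, from 1476 higher and 2010 lower to 1966 and 1660 in E-NHSM (1879 and 1713 with upper-quartile factors), from 3533 and 3474 to 4155 and 2818 in TL2i, from 3703 and 3719 to 4242 and 3192 in t2iLGöY, from 3845 and 3937 to 4423 and 3423 in LCDM (EPS) and from 4331 and 4575 to 3707 and 5352 in TL-CDK8i against TL2i cells, while no feedback gene changed direction under either scaling. TL-CDK8i and TL2i libraries of the same number did not deviate together (r of -0.145, -0.030 and -0.0047), so the numbers do not pair them, and with the replicate block 10 feedback genes were higher, as without it, and 0 lower. Numbers 1 to 3 in the primed column names, used by both J and K, did not pair primed with protocol libraries either (21 correlations of -0.040 to 0.023), and a replicate block on them, added after the data were seen, left 9 feedback genes lower in LCDM (EPS) cells, without DUSP4 at -0.85 (adjusted p = 0.0554 by edgeR's quasi-likelihood test), and changed no other feedback call. Of the single-gene values, 655 kept their direction and their side of the threshold when a library was left out, and 735 did under the other alternatives, while 27 and 28 lost and 7 and 11 gained a call. Depth limits ETV4 in TL2i and DUSP5 in t2iLGöY cells most, each with a library of 10 counts.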
